A study of Mus musculus with 20 samples.

Results

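The genes described here are grouped as feedback inhibitors of RAS to ERK signalling, meaning inhibitors that ERK itself can switch on: the dual-specificity phosphatase genes Dusp4, Dusp5 and Dusp6, the Sprouty genes Spry1, Spry2 and Spry4, and the Spred genes Spred1, Spred2 and Spred3. They were chosen by name, with earlier results of these data known. The shares of all genes given beside their counts are therefore a description and not an independent test. Every array probe that carried one of these names was taken, which gave 17 of the 56605 probes and 9 of the 25043 named genes on the arrays. In the kinase cascade, RAS activates RAF kinases such as BRAF, RAF activates MEK, and MEK activates ERK, which enters the nucleus and turns on genes that include its own inhibitors. DUSP4 and DUSP5 remove the activating phosphates from MAP kinases in the nucleus and DUSP6 does so in the cytoplasm, with DUSP5 and DUSP6 selective for ERK. Sprouty proteins act on receptor signalling upstream of and at the level of RAF, and SPRED proteins recruit neurofibromin to the membrane, where it inactivates RAS. In the gut, ERK signalling drives proliferation in the crypts, and BRAF V600E is a form of the kinase that is active without RAS.

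RNA of intestinal tissue from C57BL6/j mice was measured on 20 one-colour Agilent mouse arrays, 1 array per mouse. The Cre control group (n = 6) was VillinCreER/0 mice and the BRAFV600E group (n = 6) was VillinCreER/0 mice that also carried 1 copy of BrafV600E-LSL, a knock-in allele kept silent by a stop cassette until Cre removes it. By the study's methods these 12 mice were 8 to 12 weeks old, received 3 daily doses of 2 mg tamoxifen, the drug that activates CreER, and were sampled 3 days after the last dose. VillinCreER is driven by the Villin promoter, which is active in the intestinal epithelium, so muscle, stroma and immune cells in the tissue were not targeted. The MEKi group (n = 4) received the MEK inhibitor PD184352 and the Vehicle group (n = 4) its vehicle, in 3 injections after 2 daily injections of 1 mg tamoxifen. The labels of these 8 mice give no genotype. The study's legends describe them as mice with the mutant allele, and no age is stated for them apart from the 8 to 12 weeks that the methods give for mice in which the transgene was induced. The first comparison asks how the inhibitors' RNA differs when BRAF V600E is induced in the epithelium. The second asks how it differs when MEK, which lies between BRAF and ERK, is blocked.

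The array text gives mouse mm9 positions for the probes. RefSeq promoter sequences were at hand for 7 of the 9 genes, all but Dusp4 and Spry4, in build GRCm38.p6. The windows of 4 genes are shown so that close relatives can be set side by side: Dusp5 and Dusp6 are the ERK-selective phosphatases, and Spred1 and Spred2 are the Spred genes called in BRAFV600E. Each window holds the 250 bases before the transcription start, read in the direction of the gene. Capitals mark matches, on either strand, to letter patterns bound by factors that ERK or related kinases phosphorylate: AGGAAG and CCGGAAG for ETS factors, TGANTCA for AP-1, TGACG, the core of the cAMP response element (CRE), and the CArG box of serum response factor.

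Dusp5 (chr19:53528895-53529144, plus strand): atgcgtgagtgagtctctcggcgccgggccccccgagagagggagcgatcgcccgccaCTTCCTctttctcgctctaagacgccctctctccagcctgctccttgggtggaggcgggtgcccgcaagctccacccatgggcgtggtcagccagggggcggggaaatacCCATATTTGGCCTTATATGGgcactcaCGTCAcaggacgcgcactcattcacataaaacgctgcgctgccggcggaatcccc

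Dusp6 (chr10:99262981-99263230, plus strand): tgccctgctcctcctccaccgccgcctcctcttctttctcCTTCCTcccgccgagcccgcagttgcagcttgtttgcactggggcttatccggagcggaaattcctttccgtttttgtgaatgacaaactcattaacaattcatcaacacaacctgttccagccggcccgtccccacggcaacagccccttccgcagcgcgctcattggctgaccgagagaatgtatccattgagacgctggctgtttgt

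Spred1 (chr2:117120821-117121070, plus strand): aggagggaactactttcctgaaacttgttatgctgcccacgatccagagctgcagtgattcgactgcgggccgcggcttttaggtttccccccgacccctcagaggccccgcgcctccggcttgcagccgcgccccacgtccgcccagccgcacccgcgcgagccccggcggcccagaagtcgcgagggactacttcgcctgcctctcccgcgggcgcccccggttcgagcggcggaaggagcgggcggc

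Spred2 (chr11:19924192-19924441, plus strand): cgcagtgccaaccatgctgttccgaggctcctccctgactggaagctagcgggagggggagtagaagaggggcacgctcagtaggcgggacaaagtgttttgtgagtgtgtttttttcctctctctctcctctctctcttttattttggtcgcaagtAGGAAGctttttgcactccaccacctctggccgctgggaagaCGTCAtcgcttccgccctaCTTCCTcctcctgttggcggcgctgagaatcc

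The Dusp5 window held a pair of adjoining CArG boxes, at 82 to 73 and 72 to 63 bases before the start. A CArG box was present in 1.4% of the 27018 RefSeq windows of the same length, and in none of the other 6 windows of this family. Dusp5 also held 1 AGGAAG match and 1 TGACG match. Dusp6 held 1 AGGAAG match, and Spred2 held 2 together with 1 TGACG match. AGGAAG occurs in 29.2% of all windows and TGACG in 17.9%. The 7 windows held no CCGGAAG (7.05% of all windows), no TGANTCA (6.87%) and no full CRE, TGACGTCA (1.62%), while the bare ETS core GGAA was in all 7 and in 93.4% of all windows. Matches describe letters only, and binding was not measured.

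Levels are given as the log2 processed signal of a probe minus the 75th percentile of its array, so 0 is the brightness of the array's 75th percentile probe and a difference of 1 is a doubling. The brightest probe of each gene, by its mean over the 20 arrays, stands for that gene, and the other probes are given beside it. All 6 Cre control arrays and BRAFV600E replicates 1 and 2 were on slide 1, BRAFV600E replicates 3 to 6 were on slide 2, and all MEKi and Vehicle arrays were on slide 3, in array row 1 and row 2 respectively. Row and treatment on slide 3 cannot be told apart. The slope of the added control RNAs was out of the scanner software's range on 3 arrays of slide 1 (Cre control replicates 2, 3 and 5) and on all 4 of slide 2, where it was 0, and in range on the other 5 arrays of slide 1 and all 8 of slide 3. Between 60.8% and 76.8% of spots were well above background on each array and none was saturated. Y-linked genes were high on 3 of 6 Cre control, 4 of 6 BRAFV600E, 4 of 4 MEKi and 2 of 4 Vehicle arrays. The study states that its groups held males and females in equal numbers, which the counts in BRAFV600E and MEKi go against.

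The 10 epithelial markers were well above background on every array, with mean log2 levels from 5.44 to 6.44. Exocrine pancreas genes averaged 7.20 on Vehicle replicate 1 against -3.47 or lower on each MEKi array, so that array stands apart. Paneth cell markers ran from 2.99 to 4.88 on BRAFV600E arrays and from 5.54 to 6.68 on Cre control arrays, with 4 of 6 called lower. Crypt stem cell markers ran from -0.13 to 0.29 against 0.45 to 0.82, with 3 of 7 called lower, and were 0.58 to 0.78 under MEKi against 0.14 to 0.31 under Vehicle, with 1 of 7 called higher. Nerve and glia markers ran from -1.46 to -0.93 on BRAFV600E arrays against -0.82 to -0.27, with 3 of 7 called lower, and the markers of gut position from -1.76 to -1.13 against -2.35 to -1.78, with 1 of 5 called in each direction. T cell markers overlapped between groups in level, with 3 of 7 called lower in BRAFV600E. Calls in BRAFV600E were also made for 3 of 10 epithelial, 2 of 8 smooth muscle, 1 of 7 enterocyte and 1 of 4 exocrine pancreas genes, all higher, and for 1 of 7 B cell and 1 of 7 macrophage genes, both lower. The enterocyte call was Alpi, with a log2 difference of 1.84. The other 6 enterocyte genes were not called and had negative differences, from -2.89 for Lct to -0.32 for Apoa1. The median of that list was -0.42. Fibroblast and endothelial markers had no call by limma in either comparison, with 0 and 1 of 7 at an unadjusted p under 0.05 in BRAFV600E and 0 of 7 in both lists under MEKi. Under MEKi, 1 of 10 epithelial genes was called lower. T cell genes had no call by limma but 5 of 7 at an unadjusted p under 0.05, and their median log2 difference was 0.78, towards higher. No other marker list but the crypt stem list had a call under MEKi by limma, and their counts at an unadjusted p under 0.05 were 2 of 7 for nerve and glia, 2 of 6 for Paneth cells, 1 of 7 for enterocytes, 1 of 5 for gut position, 1 of 4 for Y-linked genes and 0 for smooth muscle, B cells, macrophages and exocrine pancreas. Median log2 differences under MEKi were 0.61 for nerve and glia, 0.91 for Paneth cells and 0.03 for enterocytes. They were -0.98 for gut position and 2.74 for Y-linked genes. The markers of gut position ran from -1.77 to -1.32 under MEKi (median -1.36) and from -1.42 to 0.76 under Vehicle (median 0.10). In bulk tissue, fewer cells of a type and less RNA per cell cannot be told apart. The part of these cell types and of gut position in the results below was not tested.

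In the BRAFV600E group 8 of the 9 inhibitor genes were higher than in the Cre control group: Dusp4, Dusp5, Dusp6, Spry1, Spry2, Spry4, Spred1 and Spred2. Spry4 rose most, 4.57-fold, followed by Dusp4 at 3.14-fold, and the other 6 rose between 1.56-fold and 2.13-fold. With another background correction (normexp, which adds an offset of 50 to every signal and so shrinks differences of dim probes) the same 8 were called, where 8.35% of all genes in that fit were called higher. Spry4 then had a log2 difference of 1.00 in place of 2.19, and Dusp4, at 1.31, came first. Spred3 was the exception. The test was limma's moderated test over 19040 genes with Benjamini-Hochberg adjustment, and a gene was called at an adjusted p under 0.05. Of all genes tested, 6.18% were called higher and 6.26% lower. The median log2 difference of the 9 genes was 0.73, against -0.02 for all genes. In 4 of them, Dusp4, Dusp6, Spry4 and Spred2, every BRAFV600E array lay above every Cre control array, which was so for 4.19% of all genes tested.

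Under MEKi, 4 of the 9 genes were lower than under Vehicle: Spry4, Dusp4, Spred1 and Spry1. They fell to between 0.198 and 0.380 of the Vehicle level, where 0.884% of 19231 genes tested were called lower and 1.09% higher. Dusp6, Spred2 and Spry2 had log2 differences of -1.50, -0.88 and -0.81 and were not called, with adjusted p = 0.0503 for Dusp6, 0.0930 for Spred2 and 0.113 for Spry2 by limma. Dusp5 and Spred3 had the smallest differences. The median log2 difference of the 9 genes was -1.40, against 0.04 for all genes. In 6 of them every MEKi array lay below every Vehicle array, which was so for 5.75% of all genes tested.

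**Figure D1:**
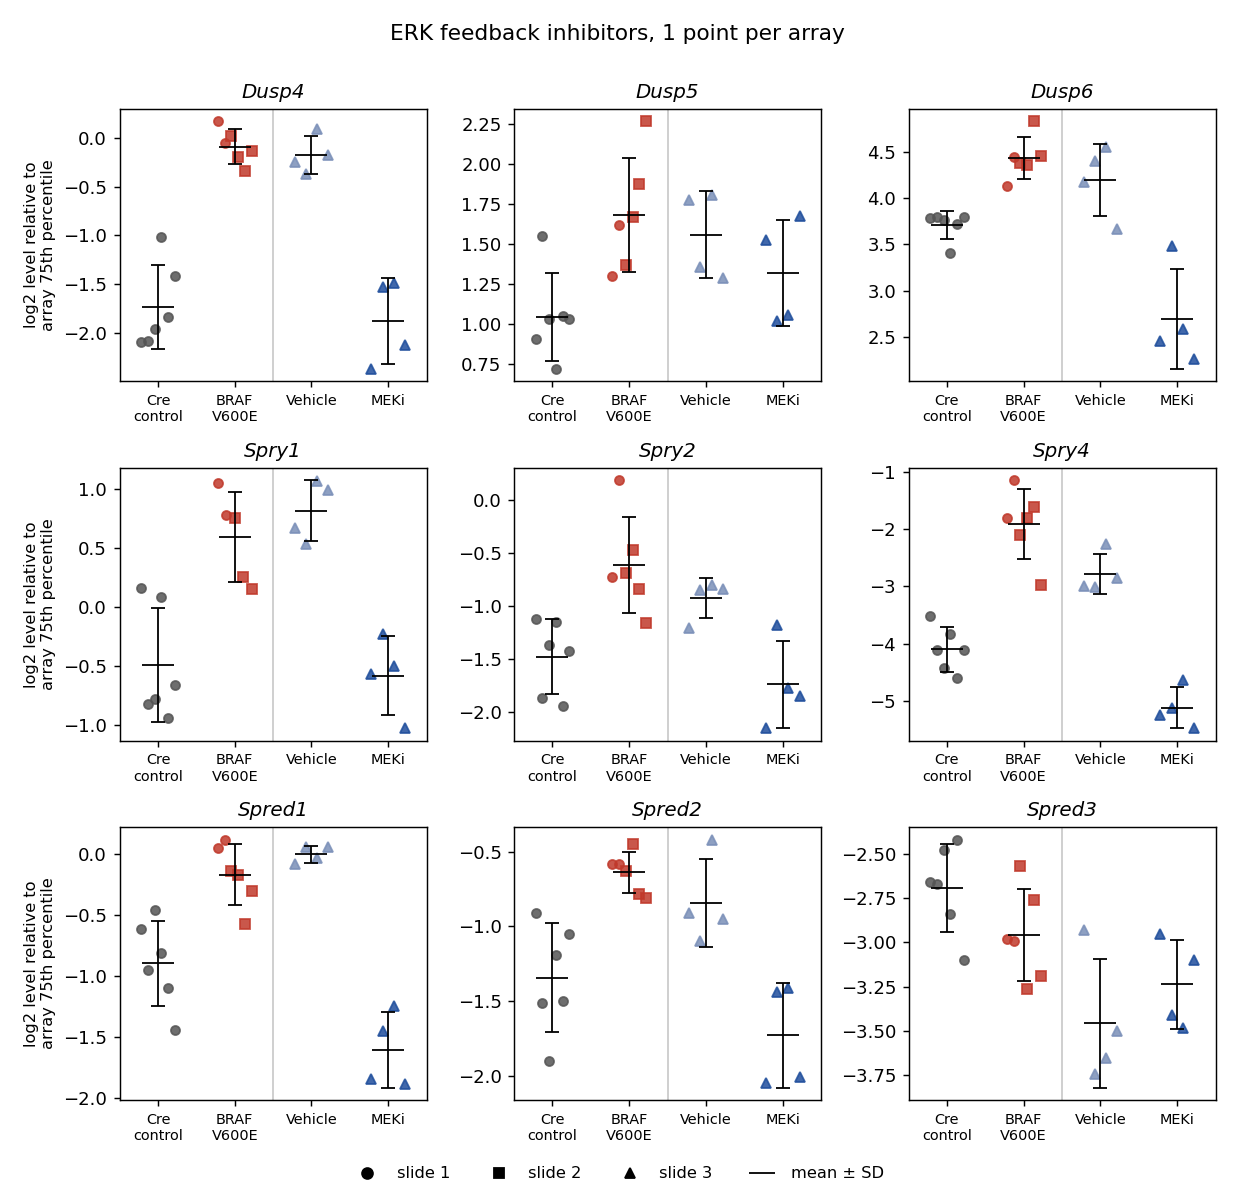
Log2 level relative to the array's 75th percentile (y axis, scaled per gene) of the probe standing for each of the 9 genes on each of the 20 arrays, by group (x axis). Points are mice, their shape gives the slide, and bars give the mean ± SD. Dusp4, Dusp6, Spry4 and Spred2 show no overlap between BRAFV600E and Cre control, and Dusp4, Dusp6, Spry1, Spry4, Spred1 and Spred2 show none between MEKi and Vehicle.

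Dusp4, a nuclear phosphatase of ERK and related kinases, was measured at chr8:35884806-35884865 (mm9, plus strand), by a probe annotated on the array to a cDNA clone. Cre control arrays ran from -2.09 to -1.02 with a median of -1.90, and BRAFV600E arrays from -0.34 to 0.17 with a median of -0.09. The groups were separate by more than the width of the BRAFV600E group. The log2 difference was 1.65 ± 0.19 (SE, n = 6 and 6, limma adjusted p = 3.06e-04). Vehicle mice read -0.25, -0.37, 0.09 and -0.18 and MEKi mice -2.37, -1.53, -1.49 and -2.12. All 4 MEKi values lay more than 1 log2 unit under the lowest Vehicle value, and the difference was -1.70 ± 0.23 (SE, n = 4 and 4, limma adjusted p = 0.0146). A dimmer Dusp4 probe at chr8:35882045-35882104 moved the same way, by 0.91 ± 0.23 in BRAFV600E (limma adjusted p = 0.0275) and by -1.56 ± 0.32 under MEKi (limma adjusted p = 0.0745).

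Dusp5, the nuclear phosphatase selective for ERK, rose by a small amount. At chr19:53616779-53616838 (plus strand), Cre control arrays ran from 0.72 to 1.55 with a median of 1.03 and BRAFV600E arrays from 1.30 to 2.27 with a median of 1.65. A single Cre control array, at 1.55, reached into the BRAFV600E range. The log2 difference was 0.64 ± 0.19 (SE, limma adjusted p = 0.0419). This call was lost in 9 of the 12 fits that left out 1 array, all but those without Cre control replicate 2 or BRAFV600E replicate 1 or 3. Vehicle mice read 1.78, 1.36, 1.81 and 1.29 and MEKi mice 1.53, 1.02, 1.06 and 1.68, which overlap, and the difference was -0.24 with a 95% interval from -0.72 to 0.24 (limma adjusted p = 0.645). The other probe, at chr19:53615682-53615741, was well above background on 1 of 6 Cre control, 5 of 6 BRAFV600E, 3 of 4 Vehicle and 2 of 4 MEKi arrays. It gave 1.53 ± 0.42 in BRAFV600E (limma adjusted p = 0.0389) and -0.97 ± 0.53 under MEKi (limma adjusted p = 0.496). Since it met the filter mainly through BRAFV600E arrays, its call there is partly built in and the size of its rise is uncertain.

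Dusp6, the cytoplasmic ERK phosphatase, had 1 probe, at chr10:98729985-98730044 (plus strand). Cre control arrays ran from 3.41 to 3.79 with a median of 3.77, and BRAFV600E arrays from 4.13 to 4.83 with a median of 4.41. The Cre control values were among the tightest of the family, SD 0.15, and the difference was 0.72 ± 0.13 (SE, limma adjusted p = 0.00541). Vehicle mice read 4.17, 4.40, 4.55 and 3.66 and MEKi mice 2.45, 3.48, 2.58 and 2.26. MEKi replicate 2, at 3.48, lay closer to the Vehicle group than the other 3. The difference of -1.50 ± 0.30 just missed the threshold (limma adjusted p = 0.0503), and without MEKi replicate 2 it was -1.76 (limma adjusted p = 0.0222). That was the only call of Dusp6 among the 8 fits that left out 1 array.

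Spry1 was measured at chr3:37543194-37543253 (plus strand) and its spot on BRAFV600E replicate 6 was marked as an outlier by the scanner software, which leaves 5 BRAFV600E values. Cre control arrays ran from -0.94 to 0.16 with a median of -0.72 and BRAFV600E arrays from 0.15 to 1.05 with a median of 0.75. The ranges met at a single pair of values. The difference was 1.09 ± 0.25 (SE, n = 5 and 6, limma adjusted p = 0.0187). Vehicle mice read 0.67, 0.53, 1.07 and 0.99 and MEKi mice -0.57, -0.23, -0.50 and -1.03. Every MEKi value was below 0 and every Vehicle value above it, with a difference of -1.40 ± 0.20 (SE, limma adjusted p = 0.0196). This call was lost on leaving out MEKi replicate 1 or 3 or Vehicle replicate 3 or 4, with limma adjusted p between 0.0599 and 0.0727.

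Spry2 had a probe pair that lay close together on the minus strand of chromosome 14 and did not respond alike. The brighter, at chr14:106291385-106291444, ran from -1.94 to -1.12 in Cre control (median -1.40) and from -1.16 to 0.18 in BRAFV600E (median -0.71), a difference of 0.86 ± 0.23 (SE, limma adjusted p = 0.0276). Only the lowest BRAFV600E array fell within the Cre control range, and the call was lost in 3 of the 12 fits that left out 1 array (Cre control replicate 2 or 5, or BRAFV600E replicate 4). Vehicle mice read -1.21, -0.85, -0.80 and -0.84 and MEKi mice -2.15, -1.18, -1.77 and -1.85, a difference of -0.81 ± 0.22 (limma adjusted p = 0.113). The dimmer probe, at chr14:106291901-106291960, was well above background on all 20 arrays and differed by -0.12 ± 0.20 in BRAFV600E (limma adjusted p = 0.745) and by -0.45 ± 0.20 under MEKi (limma adjusted p = 0.383). With the probes averaged the BRAFV600E difference was 0.37 and was not called (limma adjusted p = 0.107).

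Spry4 had the largest difference of the 9 genes in both comparisons with the processed signal, but not with normexp. Its single probe, at chr18:38745923-38745982 (minus strand), ran from -4.60 to -3.51 in Cre control with a median of -4.11, and from -2.97 to -1.15 in BRAFV600E with a median of -1.80. It was dim but well above background on all 20 arrays. The difference was 2.19 ± 0.28 (SE, n = 6 and 6, limma adjusted p = 6.17e-04), a fold of 4.57 with a 95% interval from 3.01 to 6.94. Vehicle mice read -3.00, -3.02, -2.26 and -2.85 and MEKi mice -5.25, -5.12, -4.63 and -5.48. The groups were more than 1 log2 unit apart, and the difference was -2.34 ± 0.24 (SE, n = 4 and 4, limma adjusted p = 0.00517). MEKi values were 0.198 of Vehicle values, with a 95% interval from 0.136 to 0.288. With normexp the differences were 1.00 and -1.12, both still called (limma adjusted p = 0.00628 and 0.00993), and under MEKi those of Dusp4 (-1.47), Dusp6 (-1.46), Spred1 (-1.45) and Spry1 (-1.33) were larger.

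Spred1 was measured at chr2:117007850-117007909 (plus strand). Cre control arrays ran from -1.44 to -0.46 with a median of -0.88 and BRAFV600E arrays from -0.57 to 0.12 with a median of -0.15, a difference of 0.73 ± 0.18 (SE, limma adjusted p = 0.0222). The lowest BRAFV600E array lay just inside the Cre control range. The 4 Vehicle mice read -0.08, 0.06, -0.03 and 0.06, the narrowest spread of any member in any group (SD 0.07), and the MEKi mice -1.84, -1.45, -1.24 and -1.88. The difference was -1.61 ± 0.17 (SE, limma adjusted p = 0.00597). A second probe, at chr2:116997721-116997780, was well above background on 2 of 6 Cre control, 3 of 6 BRAFV600E, 1 of 4 Vehicle and 0 of 4 MEKi arrays, and did not pass the background filter in either comparison.

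Spred2 had 3 probes on the plus strand of chromosome 11. The brightest, at chr11:19880739-19880798, is annotated on the array to a cDNA clone rather than to the RefSeq transcript. It ran from -1.90 to -0.91 in Cre control (median -1.34) and from -0.81 to -0.45 in BRAFV600E (median -0.60), a difference of 0.70 ± 0.17 (SE, limma adjusted p = 0.0181). The 6 BRAFV600E arrays lay closely together and above all Cre control arrays. Vehicle mice read -0.91, -1.10, -0.42 and -0.95 and MEKi mice -2.05, -1.44, -1.41 and -2.01, a difference of -0.88 ± 0.22 (limma adjusted p = 0.0930). The probe at chr11:19922416-19922475 gave 0.71 ± 0.35 and -1.01 ± 0.40, with wider spreads and no call. The third, whose 60 bases span 2522 bases of the genome, from chr11:19905935 to 19908456, and so cross at least 1 splice junction, gave 0.10 ± 0.29 and -0.57 ± 0.59. Averaged over its probes, Spred2 differed by 0.51 in BRAFV600E and was not called (limma adjusted p = 0.111).

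Spred3 was called in neither comparison. At chr7:29946564-29946623 (minus strand), Cre control arrays ran from -3.10 to -2.42 with a median of -2.67 and BRAFV600E arrays from -3.26 to -2.57 with a median of -2.98. The ranges overlapped over most of their width, and the difference was -0.26 with a 95% interval from -0.60 to 0.08 (limma adjusted p = 0.284). Vehicle mice read -2.93, -3.74, -3.65 and -3.50 and MEKi mice -2.95, -3.41, -3.48 and -3.10, a difference of 0.22 with a 95% interval from -0.27 to 0.71 (limma adjusted p = 0.685). Its other 2 probes were dim, with 1 passing the filter in the first comparison and both in the second, and neither was called.

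**Figure D2:**
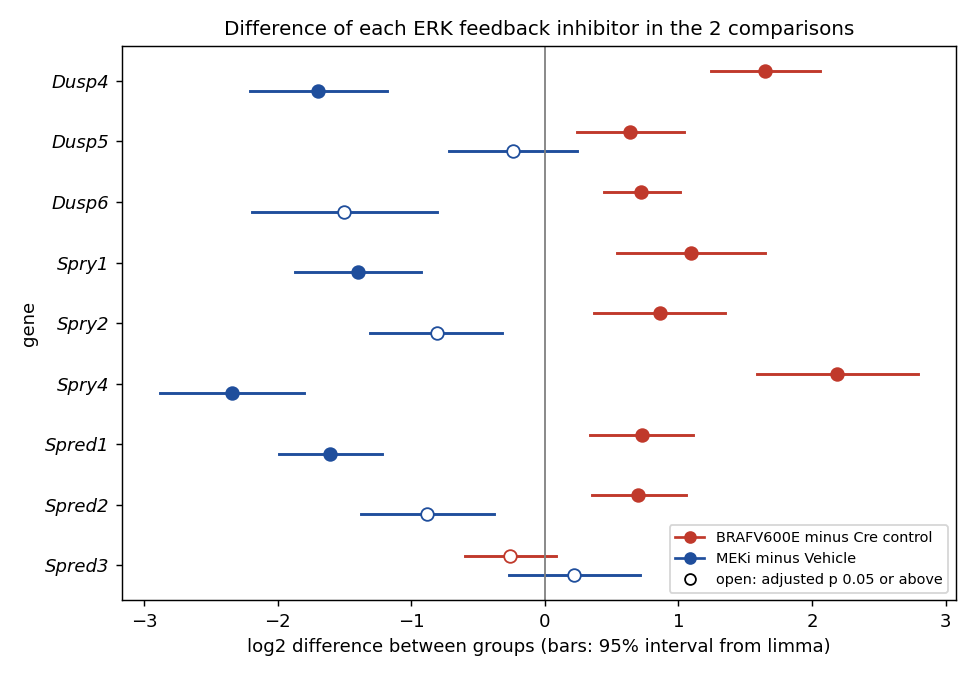
Log2 difference (x axis) of the probe standing for each gene (y axis), BRAFV600E minus Cre control in red and MEKi minus Vehicle in blue, with 95% intervals from limma and open symbols where the adjusted p was 0.05 or above. The red points of 8 genes lie right of 0 with filled symbols, and the blue points of Dusp4, Spry1, Spry4 and Spred1 lie left of 0 with filled symbols.

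Over all 17 probes, 15 passed the filter in the BRAFV600E comparison and 16 in the MEKi comparison. When every probe on the arrays was tested on its own, 9 of the 15 were called higher in BRAFV600E, where 5.12% of all 38501 probes were called higher, and 4 of the 16 were called lower under MEKi, where 0.408% of all 39249 probes were called lower. The bright Dusp5 probe was not called in this fit (limma adjusted p = 0.0532). The 9 include the dimmer Dusp5 probe, which met the filter through 1 of 6 Cre control and 5 of 6 BRAFV600E arrays. Its call is partly built into that filter and is not counted as separate evidence of a rise. A stricter filter required each array compared to be well above background. It also gave 9 called probes of these genes in BRAFV600E, where 8.10% of 29775 probes were called higher. Of the 6 genes with more than 1 probe, the Spry2 pair differed most from each other in the BRAFV600E comparison, 0.86 against -0.12, among probes well above background on every array.

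**Figure D3:**
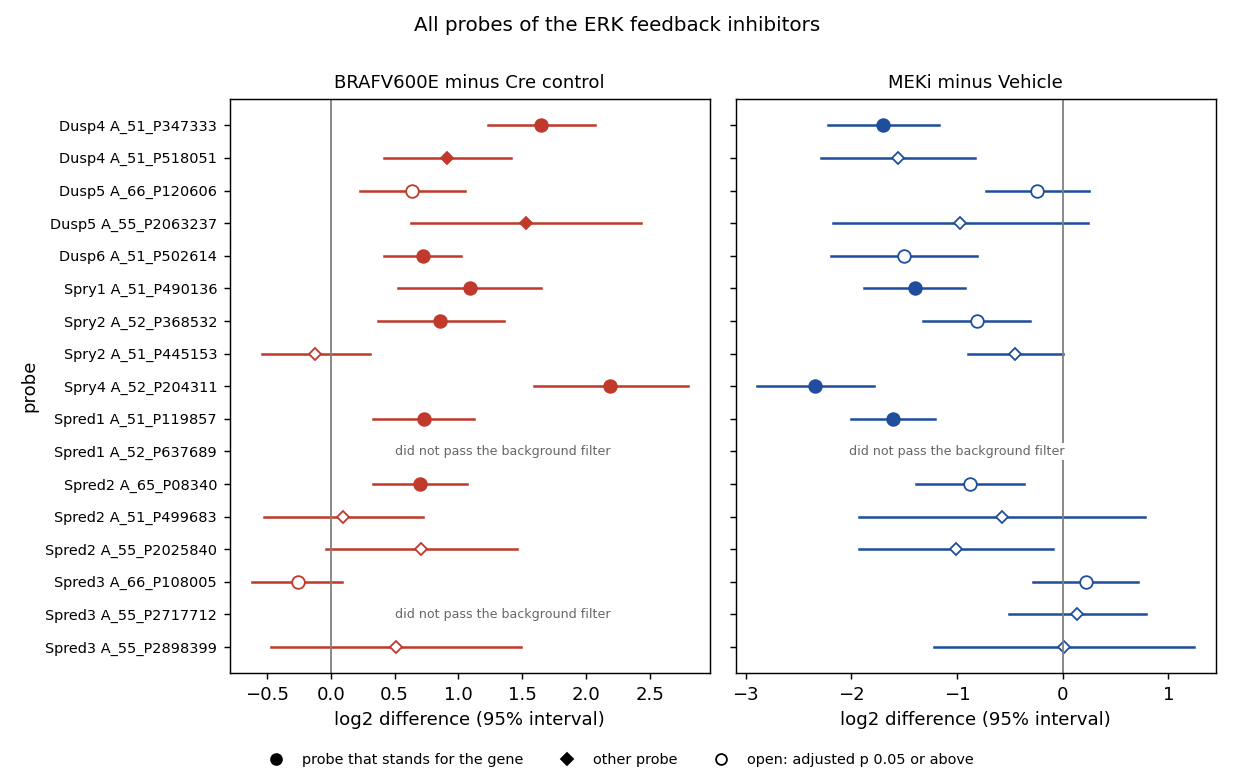
Log2 difference and 95% interval (x axis) of the members' probes (y axis) in the fit over all probes, BRAFV600E minus Cre control on the left and MEKi minus Vehicle on the right. Circles are the probes that stand for a gene, diamonds the other probes, and open symbols have an adjusted p of 0.05 or above. Of the 17 probes listed, the 2 on the left and 1 on the right that did not pass the background filter have no value. The second Spry2 probe lies at -0.12 on the left where the first lies at 0.86.

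Within each family the size of the response was compared between members, taking the difference of 2 genes on each array and permuting the group labels of the arrays exactly (two-sided, 18 pairs over both comparisons, with Benjamini-Hochberg adjustment over those pairs). With 4 against 4 arrays the smallest p this allows is 0.0286. Spry4 rose more than Spry1 by 1.31 log2 units and more than Spry2 by 1.33 in BRAFV600E (exact p = 0.00216 and adjusted p = 0.0130 for each). Under MEKi it fell more than Spry1 by 0.94 and more than Spry2 by 1.53 (exact p = 0.0286 and adjusted p = 0.0468 for each). Dusp4 rose more than Dusp5 by 1.01 (exact p = 0.0130, adjusted p = 0.0468) and than Dusp6 by 0.93 (exact p = 0.0173, adjusted p = 0.0468). This order depends on the probe, since the other Dusp4 probe rose by 0.91 and the other Dusp5 probe by 1.53. Averaged over probes, Dusp4 rose by 1.28 and Dusp5 by 1.08, and Dusp6, with 1 probe, by 0.72. The other Dusp5 probe met the filter mainly through BRAFV600E arrays, so its rise is partly built in. The Dusp5 average rests on it and is uncertain in size, where the bright Dusp5 probe gave 0.64. Under MEKi, Dusp4 fell more than Dusp5 by 1.46 (exact p = 0.0286, adjusted p = 0.0468), while Dusp6 differed from Dusp5 by 1.26 with an exact p of 0.0857. Spred1 and Spred2 differed in their rise by 0.02 (exact p = 0.926), and under MEKi Spred1 fell more than Spred2 by 0.72 (exact p = 0.0286, adjusted p = 0.0468). Spred1 rose more than Spred3 by 0.99 (exact p = 0.00216, adjusted p = 0.0130) and fell more under MEKi by 1.82 (exact p = 0.0286, adjusted p = 0.0468). These differences compare probes of unequal brightness, and most calls did not hold with normexp, an alternative applied to the pairs after seeing the data. Of the 11 pairs with an adjusted p under 0.05, only Spred1 against Spred3 in BRAFV600E remained (1.13, exact p = 0.00216, adjusted p = 0.0390), and the other 10 had adjusted p from 0.0735 to 0.504. Among these, Dusp4 against Dusp5 (1.28), Spred1 against Spred2 (0.68) and Spred1 against Spred3 (1.48) under MEKi kept the smallest possible exact p, 0.0286. Their adjusted p was 0.0735 each. Spry4 then rose more than Spry1 by 0.23 (exact p = 0.448), and under MEKi the order turned, with Spry1 falling more than Spry4 by 0.21 (exact p = 0.229).

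The slide and the Y-linked signal bear on these calls. Since the 4 arrays of slide 2 were all BRAFV600E, the slide can be separated from the genotype only through BRAFV600E replicates 1 and 2. With slide as a term in the fit, 5 of the 8 genes remained called, Dusp4, Spry1, Spry2, Spry4 and Spred1, with differences of 1.80, 1.41, 1.20, 2.63 and 0.98, where 2.44% of all genes were called higher. Dusp5, Dusp6 and Spred2 then had 0.42, 0.58 and 0.76, with limma adjusted p of 0.321, 0.0699 and 0.0723. Within slide 1 alone, with 2 BRAFV600E and 6 Cre control arrays, the differences were the same and 2 genes were called, Dusp4 (limma adjusted p = 0.0209) and Spry4 (limma adjusted p = 0.00537), against 0.956% of all genes. On the 5 arrays of slide 1 whose control RNA slope was in range, limma called none of the 9 and 4 of all 19465 genes higher, 7 members had an unadjusted p under 0.05, and the 8 differences lay between 0.47 and 2.35. With Y-linked signal added to the model, 7 remained called in BRAFV600E (4.52% of all genes) and only Spry4 under MEKi (0.156% of all genes; difference -2.49, limma adjusted p = 0.0414), where Dusp4, Spry1 and Spred1 had -1.81, -1.46 and -1.56. On arrays with high Y-linked signal alone, 1 gene was called in each comparison, Dusp4 in BRAFV600E, where 0.850% of all genes were called higher, and Spry4 under MEKi, where 0.213% were called lower. In those arrays the BRAFV600E differences were 2.05 for Dusp4, 2.01 for Spry4, 1.34 for Spry1, 0.85 for Spry2, 0.79 for Spred2, 0.61 for Spred1, 0.57 for Dusp6 and 0.48 for Dusp5. Under MEKi they were -2.49 for Spry4, -1.79 for Dusp4, -1.55 for Spred1 and -1.45 for Spry1, about as large as over all 8 arrays. Without Vehicle replicate 1, the array with pancreatic RNA, the same 4 genes were called under MEKi, with differences of -2.41 for Spry4, -1.72 for Dusp4, -1.63 for Spred1 and -1.45 for Spry1.

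Other genes of the pathway were described by 4 lists. Of 7 other MAP kinase phosphatase genes, Dusp8, which acts on stress kinases, was higher in BRAFV600E by 0.77 ± 0.23 (limma adjusted p = 0.0456) and Dusp16, a phosphatase of JNK, higher under MEKi by 0.78 ± 0.12 (limma adjusted p = 0.0209), while the other 6 were not called in either case. Of 14 other brakes on RAS and ERK signalling, 2 were higher and 1 lower in BRAFV600E, and 2 were lower under MEKi. Rasal1, a GTPase-activating protein for RAS, was higher by 3.37 ± 0.35 in BRAFV600E (limma adjusted p = 1.53e-04) and had a log2 difference of -2.86 ± 0.43 under MEKi (limma adjusted p = 0.0205). Errfi1, which inhibits the EGF receptor, was higher by 1.72 ± 0.18 (limma adjusted p = 1.72e-04) in BRAFV600E and differed by -2.07 ± 0.32 under MEKi (limma adjusted p = 0.0217). Pebp1, the RAF kinase inhibitor protein, was lower in BRAFV600E, with -0.82 ± 0.23 (limma adjusted p = 0.0402).

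Of 16 core kinases and adaptors from RAS to ERK, 3 were higher in BRAFV600E, Map2k1 (encoding MEK1) by 1.05 ± 0.24, Nras by 0.56 ± 0.13 and Hras by 0.43 ± 0.12, and none was called under MEKi by limma, with 3 of 16 at an unadjusted p under 0.05. Braf, singled out as the engineered gene, had a difference of 0.42 ± 0.20 in BRAFV600E (limma adjusted p = 0.172), and where its probe lies relative to the mutated codon was not analysed, so it does not check the labels. Of 16 genes known to be induced by ERK, 6 were higher and 1 lower in BRAFV600E, and 4 were lower under MEKi. Etv4, an ETS factor, had the largest differences, 2.50 ± 0.27 and -2.95 ± 0.23 (limma adjusted p = 1.72e-04 and 0.00329). Phlda1 had 1.76 ± 0.35 and -2.14 ± 0.38, and Egr1, an immediate early transcription factor, 1.26 ± 0.27 in BRAFV600E. Etv5, a close relative of Etv4, had 1.00 ± 0.11 and -2.57 ± 0.17. Named after their values were seen, Etv1 was the gene lower in BRAFV600E (-0.73 ± 0.20) and Plaur the remaining gene lower under MEKi (-1.74 ± 0.22).

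**Figure D4:**
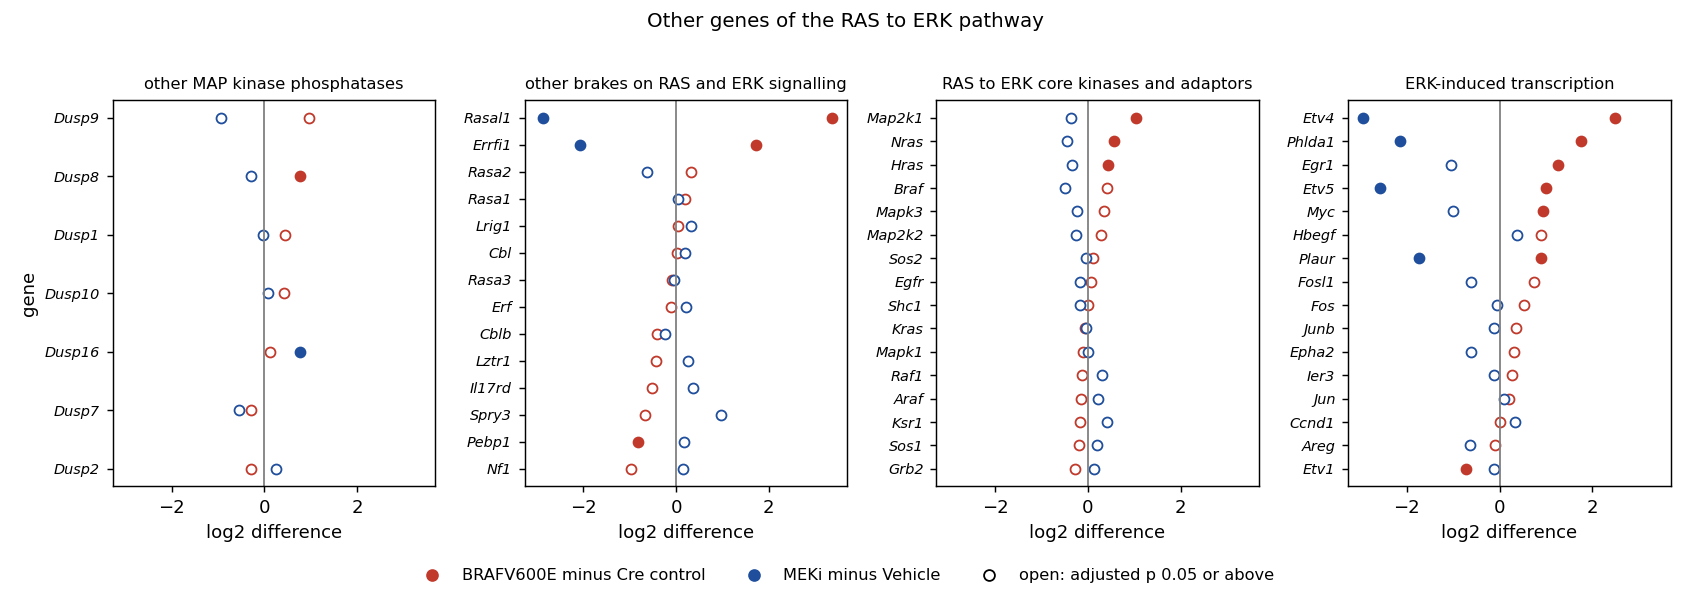
Log2 difference (x axis) of each gene (y axis, ordered by its BRAFV600E difference) in 4 lists of other pathway genes, BRAFV600E minus Cre control in red and MEKi minus Vehicle in blue, with open symbols where the adjusted p was 0.05 or above. Filled symbols are few among the phosphatases and core kinases, and Rasal1, Errfi1, Etv4, Etv5, Phlda1 and Plaur have filled symbols on both sides of 0.

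With levels centred within each experiment and compared over the 20 arrays, the genes most like each called member among 18576 others were the following, given as Pearson's r without a test, since group differences enter it. Dusp4 was nearest to Pgap1 and Plscr1 (0.97 each) and Aqp5 (0.95), and Spry4 to Phlda2 and Slc2a1 (0.96 each) and Lss (0.95). Spred1 was nearest to Etv5 (0.93), Plscr1 (0.90) and Mtap (0.89), and genes near Spry2 included Pard6b (0.96) and Pof1b (0.94). Spry1, over 19 arrays, was nearest to Mex3c, Fam210a and Gnl3 (0.93 each), Spred2 to Fam210a, Ccdc86 and Prkaa2 (0.92 each), and Dusp6 to Plk3 (0.90), Card19 and Ceacam18 (0.89 each). Dusp5 was nearest to Ube2l3 (0.92), Arpp19 (0.91) and Gm15421 (0.90). Among the members, the pairs of Dusp4, Dusp6, Spry1, Spry2, Spry4, Spred1 and Spred2 had r from 0.71 to 0.91. Dusp5 had r from 0.24 to 0.48 with those 7, and Spred3 from -0.60 to -0.39.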

How the data were processed

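RNA of intestinal tissue from 20 mice was labelled with Cy3 and hybridised to one-colour Agilent mouse arrays. The deposited scanner files hold, per the file headers, an intensity for each spot (processed signal, background-corrected by the authors with Agilent Feature Extraction 10.5.1.1, build mm9). A deposited table of the whole series held the same processed intensity, unscaled, for 100% of spots. Groups came from the labels. A treatment text given alike for all 20 samples describes a drug outside this comparison and was not used. Processed signals were scaled by each array's 75th percentile and taken to log2, control spots and spots marked as outliers were left out, and replicate spots of a probe were averaged. Probes were named through RefSeq accessions and symbols. The brightest probe stood for a gene. A probe was tested if well above background on at least 6 of 12 or 4 of 8 arrays. For each comparison, limma 3.58.1 (R 4.3.3) was fitted across all genes to the arrays of its 2 groups, with Benjamini-Hochberg adjustment and a threshold of 0.05, and checked on simulated data. A second fit tested every probe. Precision is limited by the number of arrays, the labels do not say how animals were assigned to slides, and p-values measure the spread between these mice. Members and gene lists were chosen with earlier results of these data known. All 9 genes are named with every probe, and up to 3 called genes with the largest differences from each of the 4 pathway lists. Cell type markers were epithelium, enterocyte, crypt stem, Paneth, smooth muscle, fibroblast, endothelium, nerve and glia, T cell, B cell, macrophage, gut position, exocrine pancreas and Y-linked genes. Alternatives covered scaling, background correction, filters, the probe rule, the fit, Y-linked signal, slide and leaving out each array. Keeping only arrays with control RNA slopes in range, and normexp for the pairs of members, were added after seeing the data. Exonic, intronic or untranslated positions of probes were not analysed here. Motifs were searched in RefSeq promoter windows of GRCm38.p6, with no coordinates converted between builds. One gene among those nearest in pattern to a member is not reported here.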

Additional observations from a re-analysis of the deposited data

Results flagged for a closer look

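Of the groups of 4 to 6 values of the probes that stand for the 9 genes, 36 were examined and 2 held an array far from its neighbours by Dixon's criterion, about what chance gives at 1 in 20 groups. Dusp6 read 3.41 on Cre control replicate 4, the lowest of that group, where the next value was 3.72. The gap was 0.821 of the group's range. Spry2 read -1.21 on Vehicle replicate 1, the lowest of its group, where the next value was -0.85, a gap of 0.877 of the range. Vehicle replicate 1 is also the array with high exocrine pancreas genes, and without it Spry2 under MEKi had a difference of -0.91 (limma adjusted p = 0.143).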

How the results depend on the processing

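All 8 genes called in BRAFV600E kept their direction in the 29 alternative fits, and the 4 called under MEKi kept theirs in 22. Over the fits that each left out 1 array, the genes called numbered 6 to 8 in BRAFV600E and 3 to 6 under MEKi, and the probes called 3 to 9 and 2 to 6. In these fits 3.84% to 7.33% of all genes were called higher in BRAFV600E and 0.191% to 0.840% lower under MEKi. For all probes the shares were 2.76% to 7.32% and 0.0681% to 0.399%. In BRAFV600E the genes called fell to 5 with slide as a term, 2 within slide 1, 1 with high Y-linked arrays only and 0 on arrays with control slopes in range (7 genes and 8 probes at an unadjusted p under 0.05 by limma), and the probes called to 2, 1 and 0 in the last 3 of these. The share of all genes called higher fell from 6.18% to 2.44%, 0.956%, 0.850% and 0.0205% in the same order. Under MEKi the genes called were 1 without scaling, 1 with the Y-linked covariate, 1 on high Y-linked arrays and 7 with array weights, where 0.203%, 0.156%, 0.213% and 2.79% of all genes were called lower against 0.884%, and the probes called 1, 0, 0 and 8, with 9 probes at an unadjusted p under 0.05 by limma in both Y-linked settings and 7 probes called with all 20 arrays in 1 fit. Slide 1, the high Y-linked arrays and the arrays in range are fewer arrays, and for the other settings the cause was not tested. Spred3 in BRAFV600E, never called, changed sign to 0.55 without scaling, where the median of all genes was 0.79 against -0.02, and to 0.12 with its probes averaged. Normexp kept all 8 calls in BRAFV600E, where 8.35% of all genes were called higher, and gave 5 under MEKi, where 1.18% were called lower. It lowered Spry4 from 2.19 to 1.00 and from -2.34 to -1.12, below Dusp4 in size in both comparisons. On high Y-linked arrays Dusp4 (2.05) also stood above Spry4 (2.01) in BRAFV600E. No paired analysis was possible because the replicate numbers follow accession order and the labels name no litters, although some of their animal numbers are adjacent across groups.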
